A study of Mus musculus with 6 samples.

Results

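The colony-stimulating factors and their receptor chains are a family of 8 genes, 3 for secreted factors (Csf1, Csf2 and Csf3) and 5 for receptor chains (Csf1r, Csf2ra, Csf2rb, Csf2rb2 and Csf3r), among 55487 genes in the count table. The family was chosen by the counts of Csf3, which had the largest fall of all genes tested between the groups described next, so the values of Csf3 are given as a description, with no test. The other 7 genes belong to it by name and role, and all 8 were found in the table by symbol. A low-count filter kept 7 of the 8 for testing and left out Csf2.

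RNA was sequenced from 6 samples of RAW264.7, a mouse macrophage line transformed by Abelson leukemia virus that can form osteoclasts. There were 3 samples whose genotype is given as RhoA knockout, titled SMART-Cas9, and 3 control samples of genotype wt. All 6 had been given RANKL and M-CSF, which together turn macrophage precursors into osteoclasts, although the design text calls the control an untreated line. RhoA is a small GTPase of the actin cytoskeleton, and the study asked how macrophages without it bear on the bone loss of rheumatoid arthritis. Cas9 was never given alone, so what it did and what the edit did cannot be told apart. The labels do not say whether the knockout samples come from 1 clone, nor whether the samples of a group were grown apart. The p-values therefore set the difference between the groups against a spread among these samples that may be only technical. Rhoa itself did not fall in the libraries labelled RhoA knockout. Its counts were 2805, 2670 and 2395 there, against 1655, 1510 and 1440 in control, and its log2 fold change was 0.41 ± 0.12 (SE; adjusted p = 0.0136), a call lost without replicate 1 labelled knockout (adjusted p = 0.0741) and without control replicate 1 (adjusted p = 0.0645). The position of the edit is not given in the sources used here, so these mRNA counts may not test the edit. Every direction below is one between libraries as labelled.

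Csf1 encodes M-CSF, the factor that keeps macrophages alive and growing and, with RANKL, makes them into osteoclasts. Its receptor is the tyrosine kinase encoded by Csf1r. Csf2 encodes GM-CSF, which macrophages can both make and answer to, through an alpha chain (Csf2ra) paired with a beta chain (Csf2rb) that the receptors for IL-3 and IL-5 also use. Mice carry a second beta chain gene, Csf2rb2, whose product works with the IL-3 receptor. Csf3 encodes G-CSF, which activated macrophages secrete and which drives the growth of neutrophils through the receptor encoded by Csf3r. The M-CSF given to these cells was protein and left no reads, so Csf1 counts show only what the cells transcribed.

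The libraries labelled RhoA knockout held 71777994, 79639979 and 81830819 counts, and the control libraries held 79918899, 60198645 and 66104600. Replicate 3 stood apart within both groups. A chi-square comparison of the gene counts, per degree of freedom, gave 80.9 or more between it and the others labelled knockout and 89.0 or more between it and the other controls, against 26.3 and 20.7 between replicates 1 and 2. All 7 macrophage markers had a count, but Mertk, a phagocytic receptor of mature macrophages, had 4 counts in 1 control library and 0 elsewhere. The summed level of the macrophage markers was 80480 to 113200 CPM (counts scaled to a common library size) in the libraries labelled knockout, against 17940 to 19750 CPM in control, most of it lysozyme (Lyz2). The markers did not move one way. Lyz2 and Cd68 rose, at log2 fold changes of 2.39 and 1.30, but Itgam, Fcgr1, Cd14 and Adgre1 fell, at -2.01, -1.91, -0.58 and -0.51 (adjusted p of 0.0363 or less in edgeR's quasi-likelihood test). The part of these shifts in the results below was not tested. Of 8 osteoclast markers 6 had a count, with Calcr and Oscar at 0, and their summed level was 23.5 to 23.8 CPM in the libraries labelled knockout, against 21.7 to 25.9 CPM in control. The near-equal sums held changes in both directions. Ctsk and Atp6v0d2 rose by 1.10 and 0.62, and Mmp9, Acp5 and Dcstamp fell, at -2.06, -1.43 and -0.77 (adjusted p of 0.0203 or less). Of 8 markers of neutrophils and their precursors, S100a8 alone had a count, with a summed level of 0 to 0.195 CPM in the libraries labelled knockout and 0.12 to 0.246 CPM in control. Epithelial markers (Epcam, Krt8, Krt18) were counted in control replicate 1 only, at a sum of 1.44 CPM. In bulk RNA of this kind, fewer cells of a type and less RNA per cell cannot be told apart.

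The genes for the 3 secreted factors were all lowly counted in the libraries labelled knockout, and Csf3 was the one that was high in control. Csf3 (ENSMUSG00000038067.2) lies on the plus strand of chromosome 11 at 98701263 to 98703629 in GRCm38, and Csf2 (ENSMUSG00000018916.5) on the minus strand of the same chromosome at 54247271 to 54249667. Both mRNAs carry, in the 3′ untranslated region, repeats of the pentamer ATTTA, the core of the AU-rich elements through which cytokine mRNAs are held back or destroyed. The densest 30 bases of each are shown because they are what these transcripts have in common beyond being ligands. Capitals mark the pentamers, which overlap in Csf2, and both are written 5′ to 3′ on the gene's own strand.
Csf3, chr11:98702984-98703013: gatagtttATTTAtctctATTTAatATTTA
Csf2, chr11:54247329-54247358: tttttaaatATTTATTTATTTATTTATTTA
The whole annotated region held 6 ATTTA in 669 bases for Csf3 and 9 in 317 bases for Csf2. Csf2 also held 4 overlapping copies of the longer TTATTTATT, and Csf3 held 0. Csf1 had 4 ATTTA in 2111 bases and Csf1r had 3 in 1669 bases, while the 4 chains Csf2ra, Csf2rb, Csf2rb2 and Csf3r had 0. Of 20864 genes with such a region, 64.7% held an ATTTA and 7.56% a TTATTTATT, so the pentamer alone is common, and a match is only a description of the letters.

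Csf3 had 10, 22 and 20 counts in the libraries labelled knockout, against 68329, 57403 and 137084 in control. That is 0.122, 0.246 and 0.263 CPM against 886, 981 and 2326 CPM, after scaling by the trimmed mean of M values (TMM). The groups are far apart, and the control group is itself uneven, with replicate 3 more than the other 2 added together. Csf3 ranked 79, 73 and 38 among all genes in the control libraries, where it made up 0.0855, 0.0954 and 0.207% of all counts, and 12801, 11718 and 11554 in the libraries labelled knockout. Its level averaged 0.21 ± 0.077 CPM in the libraries labelled knockout and 1397 ± 805.6 CPM in control (SD, n = 3 each). The log2 fold change was -12.69 ± 0.70 (SE), rank 1 among the falls of the 12930 genes tested, and without control replicate 3 it was -12.10. A count was present in every library labelled knockout, so Csf3 was low there but above 0 counts. A read may have been counted more than once, as given with the processing below, so these low counts are uncertain. No 50-base stretch of Csf3 occurs in another annotated gene.

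Csf2 had 0 counts in each library labelled knockout, against 6, 11 and 24 in control. With a floor of 3 counts over the group, it was at least 17.4-fold lower in the libraries labelled knockout. Those few control counts left it out of the test under the filter used. Without the filter its adjusted p was 0.0323 in edgeR's quasi-likelihood test, and in DESeq2 it was 0.00327, both with Csf2 lower in the libraries labelled knockout. With 0 counts in 1 group, a fall was the only direction these tests could find. The same holds for the 4 fits that left out 1 library and kept the gene through its control counts, where the adjusted p in edgeR ran from 0.0317 to 0.0507. Gm12223, an unstudied gene antisense to Csf2, shares 6.39% of the 50-base stretches of Csf2 and had 0 counts. The neighbour Il3, which lies 15636 bp away and encodes a cytokine that uses the same beta chain as GM-CSF, also had 0 counts in every library.

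Csf1 (ENSMUSG00000014599.10, chromosome 3, 107741048 to 107760469, minus strand) was barely counted in either group. It had 0, 14 and 0 counts in the libraries labelled knockout, against 7, 24 and 20 in control. The groups overlap, since replicate 2 labelled knockout holds more than control replicate 1. Its log2 fold change was -2.35 ± 1.52 (SE; adjusted p = 0.240 in edgeR's quasi-likelihood test). Without replicate 2 labelled knockout, the group is at 0 counts and Csf1 is at least 13.8-fold lower there (floor of 3 counts over the group), with an adjusted p of 0.0336, so the call turns on that library. With 0 counts in that group, a fall was the only direction this fit could find. Its RefSeq promoter (GRCm38.p6) held 1 match to an NF-kB motif, GGAAAGTCCC, and 0.411% of 32851 promoters held a match to that motif on either strand.

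**Figure D1:**
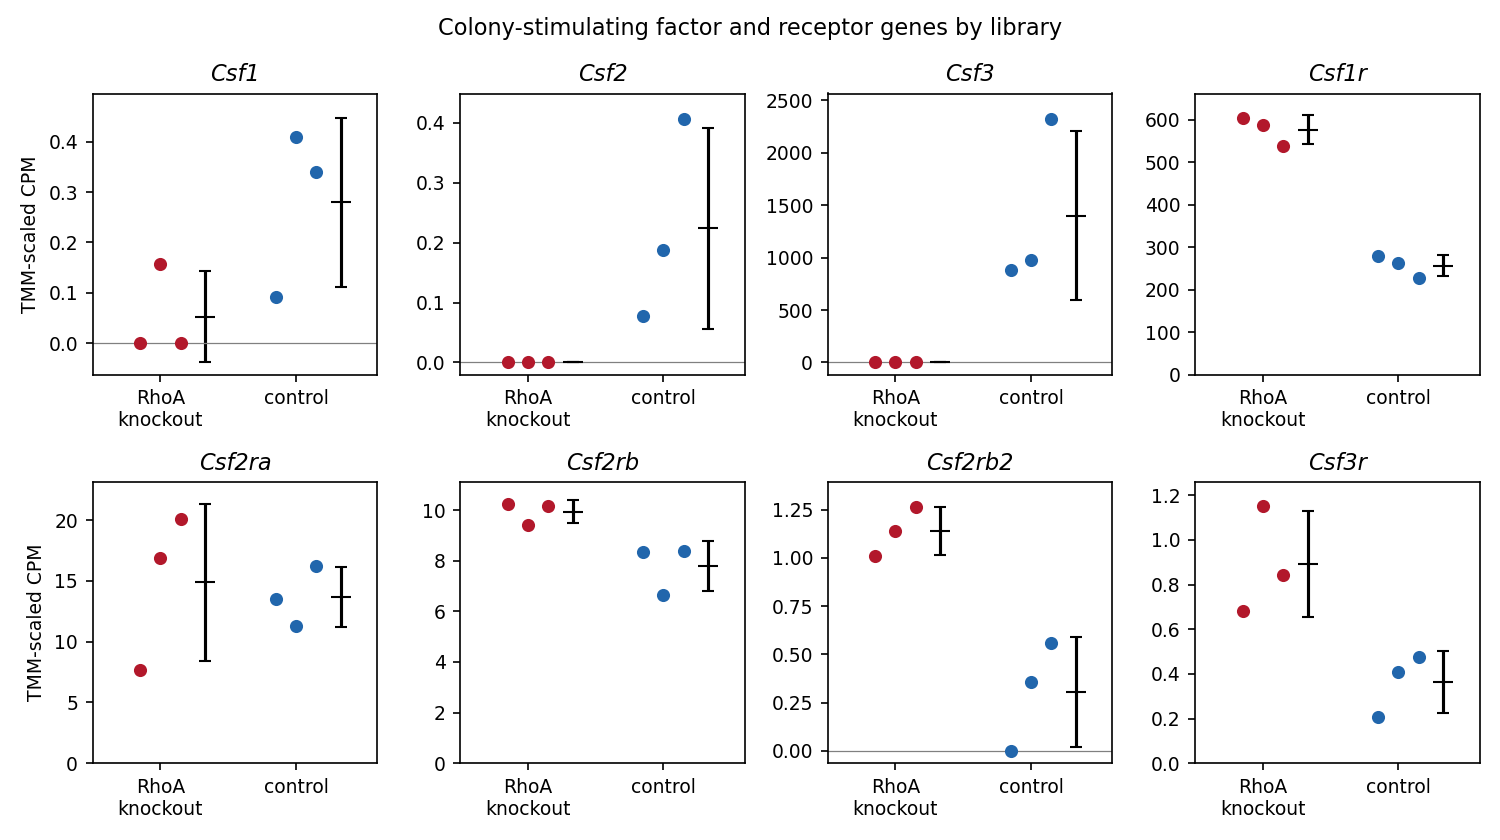
TMM-scaled CPM of the 8 genes, 1 panel a gene on its own linear axis, with the libraries labelled RhoA knockout left of control; points are libraries and the marks beside them are group means ± SD (n = 3 each). Csf3 sits at 0.122 to 0.263 CPM in the libraries labelled knockout and at 886 to 2326 CPM in control, while Csf1r sits at 539 to 605 CPM against 228 to 278 CPM.

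Among the receptor chains, Csf1r was the one whose change passed the test, and it rose. Csf1r (ENSMUSG00000024621.16) is on the plus strand of chromosome 18 at 61100598 to 61132149. It had 49617, 52576 and 40988 counts in the libraries labelled knockout, against 21477, 15462 and 13459 in control. In CPM these were 605, 588 and 539 against 278, 264 and 228, so the lowest library labelled knockout stood far above the highest control. Csf1r averaged 577 ± 34.2 CPM in the libraries labelled knockout and 257 ± 25.8 CPM in control (SD, n = 3 each). It was 2.25-fold higher in the libraries labelled knockout, at a log2 fold change of 1.17 ± 0.12 (SE; adjusted p = 8.02e-06 in edgeR's quasi-likelihood test). Over 16 other settings of the analysis it ranged from 1.09 to 1.36, with an adjusted p of at most 0.000144. Among all genes it ranked 123, 125 and 157 in the libraries labelled knockout and 196, 193 and 241 in control. Hmgxb3, which overlaps it on the other strand and shares 14.3% of its 50-base stretches, had 226, 133 and 117 counts in the libraries labelled knockout and 191, 111 and 155 in control. The counting's strand setting is not given in the sources used here, but these counts are small beside those of Csf1r.

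Of the 6 tested genes other than Csf3, 1 was higher and 0 were lower in the libraries labelled knockout, and 5 did not pass. Across all genes tested 43.2% passed, 21.0% of all being higher and 22.3% lower, and with 6 genes nothing is read from the difference between these shares. At an unadjusted p under 0.05, 3 of the 6 were higher (Csf1r, Csf2rb and Csf3r) and 0 lower, against 24.3% higher and 25.9% lower, or 50.2% in all, of all genes tested. DESeq2 gave 1 higher and 1 lower of 7 (its shares over all genes were 19.3%, 19.1% and 38.5% in all), and limma-voom gave 2 higher and 0 lower of 6 (22.1%, 23.8% and 45.9% in all). The fall in DESeq2 was Csf2, which could only fall. The second rise in limma-voom was Csf2rb2, which passed the low-count filter through the libraries labelled knockout alone. Csf3 is left out of these counts.

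The GM-CSF receptor chains showed smaller differences, which did not pass the test. Csf2ra (ENSMUSG00000059326.7, chromosome 19, 61223957 to 61228429, minus strand), the chain that binds GM-CSF, had 627, 1506 and 1531 counts in the libraries labelled knockout, against 1042, 660 and 958 in control. The groups overlap fully, with replicate 1 labelled knockout the lowest library of the 6 in CPM. Csf2ra averaged 14.9 ± 6.47 CPM in the libraries labelled knockout and 13.7 ± 2.50 CPM in control. Its log2 fold change was 0.12 ± 0.32 (SE; adjusted p = 0.795), and its sign turned in 4 of the 16 other settings.

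Csf2rb and Csf2rb2 lie 20031 bp apart on chromosome 15, on opposite strands, and are close copies. Csf2rb (ENSMUSG00000071713.6) covers 78325752 to 78353847 on the plus strand, and Csf2rb2 (ENSMUSG00000071714.7) covers 78282507 to 78305721 on the minus strand. Over 2631 aligned coding bases they were 95.21% identical. The first 90 coding bases are shown because they make plain how few letters separate reads of the copies. Capitals mark the 3 bases that differ, and the stretch spans an exon junction, so the genomic interval is longer than the sequence.
Csf2rb, chr15:78335207-78336349: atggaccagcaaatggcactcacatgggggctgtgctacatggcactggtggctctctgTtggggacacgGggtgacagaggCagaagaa
Csf2rb2, chr15:78297101-78298229: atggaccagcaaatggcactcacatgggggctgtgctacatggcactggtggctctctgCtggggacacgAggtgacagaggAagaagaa
Of the 50-base stretches, 12.27% of those in Csf2rb occur in Csf2rb2, and 18.44% of those in Csf2rb2 occur in Csf2rb. How the counting treated such reads is not given in the sources used here, so the split between the copies is uncertain.

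Csf2rb had 841, 843 and 773 counts in the libraries labelled knockout, against 644, 389 and 494 in control. All 3 libraries labelled knockout lay above all 3 controls in CPM, at 9.95 ± 0.45 CPM against 7.79 ± 0.99 CPM. The log2 fold change was 0.35 ± 0.16 (SE; adjusted p = 0.0978 in edgeR's quasi-likelihood test). It passed in 2 other settings, at 0.53 with library totals as the scaling (adjusted p = 0.0411) and at 0.67 with a correction for gene length (adjusted p = 0.00695).

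Csf2rb2 had 83, 102 and 96 counts in the libraries labelled knockout, against 0, 21 and 33 in control. Here too the groups did not overlap, with 1.14 ± 0.125 CPM in the libraries labelled knockout and 0.306 ± 0.284 CPM in control. The log2 fold change was 1.91 ± 0.93 (SE; adjusted p = 0.121), and in limma-voom it was 3.70 (adjusted p = 0.0204). This gene came through the low-count filter by the libraries labelled knockout alone, the group where it was high. Nothing is read from its limma-voom call. Per kilobase of exon, Csf2rb2 stood at 0.152, 0.186 and 0.191 of Csf2rb in the libraries labelled knockout, against 0, 0.0829 and 0.103 in control, again without overlap.

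Csf3r (ENSMUSG00000028859.14, chromosome 4, 126024550 to 126044440, plus strand), the receptor for G-CSF, was counted at a low level in all 6 libraries. It had 56, 103 and 64 counts in the libraries labelled knockout, against 16, 24 and 28 in control. The groups did not overlap, and the lowest library labelled knockout held more counts than the highest control, 56 against 28. Csf3r averaged 0.892 ± 0.239 CPM in the libraries labelled knockout and 0.364 ± 0.14 CPM in control. Its log2 fold change was 1.30 ± 0.57 (SE; adjusted p = 0.0883 in edgeR's quasi-likelihood test). It passed in none of the settings that kept it, where the adjusted p ran from 0.0579 to 0.277. A processed pseudogene on another chromosome, AC105061.2, shares 8.84% of its 50-base stretches and had 8 counts in 1 library and 0 in the others. Trub1, a pseudouridine synthase gene, shares 1.01% and had 211, 429 and 247 counts in the libraries labelled knockout, against 167, 114 and 169 in control, more than Csf3r in every library. Whether reads of these genes were counted for Csf3r was not tested, and the low counts of Csf3r are uncertain.

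Of the 6 tested genes other than Csf3, 4 had groups that did not overlap, namely Csf1r, Csf2rb, Csf2rb2 and Csf3r, all above control. Csf2rb2 passed the low-count filter through the libraries labelled knockout alone. Across all genes tested 55.8% did not overlap, 27.5% with all libraries labelled knockout above control and 28.3% with all below.

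**Figure D2:**
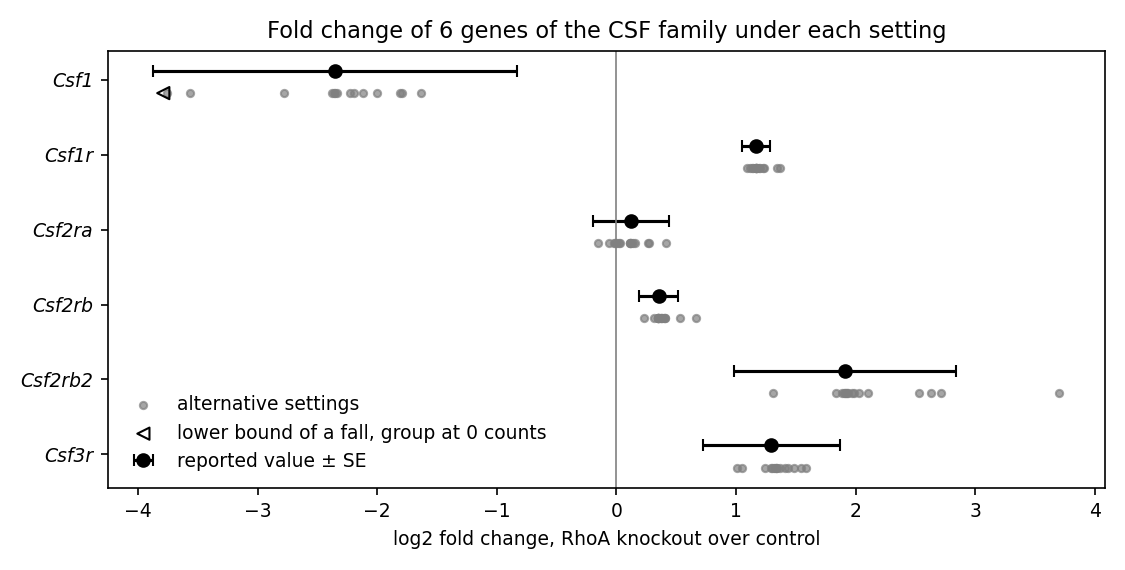
Log2 fold change, libraries labelled RhoA knockout over control, of 6 of the genes; black points are the reported values ± SE, grey points the values under each other setting that kept the gene, and the triangle a bound for a group at 0 counts. Csf1r stays between 1.09 and 1.36, whereas Csf2ra crosses 0 and Csf1 is at a bound of 13.8-fold lower in 1 setting.

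Per kilobase of exon, the scale on which genes can be compared with each other, the order differed between the groups only by Csf3 and Csf2. Csf3 was picked for its fall, and Csf2 had 0 counts in the libraries labelled knockout. The other genes of the family kept the same order of means in both groups. In the libraries labelled knockout Csf1r led at 99.97 CPM per kb, followed by Csf2ra at 5.18 and Csf2rb at 1.37. Csf3r at 0.247 and Csf2rb2 at 0.24 came next and overlapped, then Csf3 at 0.149. Csf1 at 0.0099 and Csf2 at 0 were the lowest and overlapped as well. In control Csf3 led at 989 CPM per kb, ahead of Csf1r at 44.5, Csf2ra at 4.76 and Csf2rb at 1.07. The 4 below them, Csf2 at 0.28, Csf3r at 0.101, Csf2rb2 at 0.0646 and Csf1 at 0.053, each overlapped with the next in the order. Set against the beta chain of the GM-CSF receptor, Csf1r was 74.4, 78.6 and 66.8 times the level of Csf2rb in the libraries labelled knockout and 42.0, 50.1 and 34.3 times in control.

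**Figure D3:**
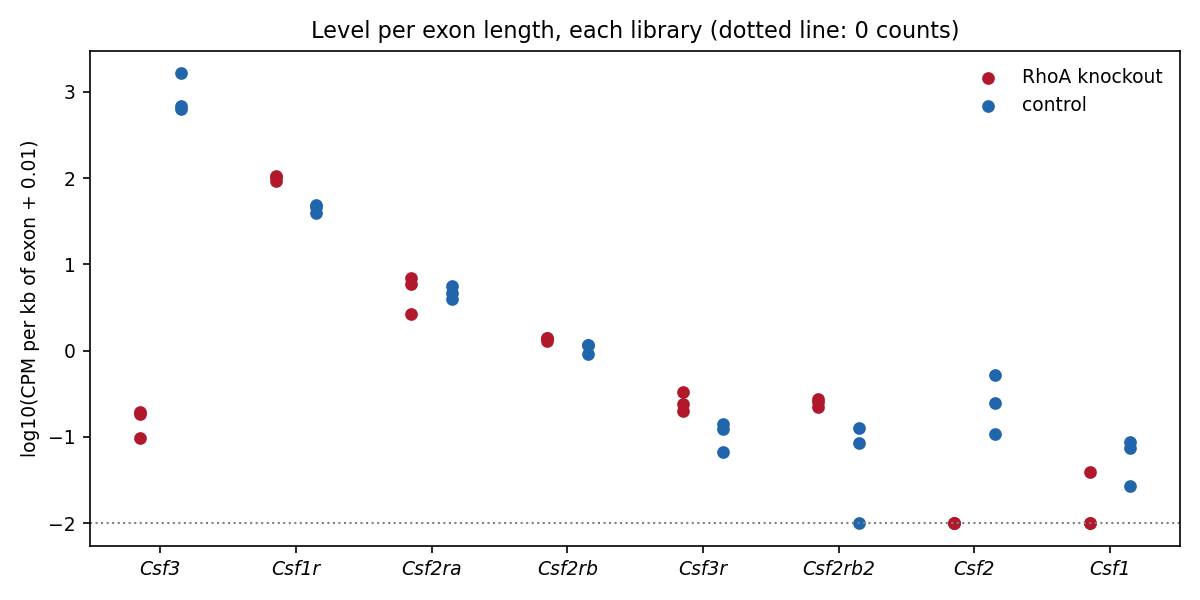
Log10 of TMM-scaled CPM per kilobase of exon of the 8 genes, with the libraries labelled RhoA knockout left of control; points are libraries, and a small constant was added so that 0 counts show on the dotted line. Csf3 is first of the 8 in control, at a mean of 989, and sixth in the libraries labelled knockout, at 0.149.

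The genes around the family gave a local background for these changes. Csf3 sits between Psmd3, a proteasome subunit gene 5284 bp away, and Med24, a Mediator subunit gene 962 bp away. Both fell, by 1.40 ± 0.17 on the log2 scale (SE; adjusted p = 3.06e-05) for Psmd3 and by 1.13 ± 0.16 (adjusted p = 0.000109) for Med24, amounts far smaller than that of Csf3. Next to Csf2rb2, Ncf4, a subunit gene of the phagocyte NADPH oxidase 19927 bp away, rose by 1.12 ± 0.13 (adjusted p = 2.74e-05). Beside Csf3r, Mrps15, a mitochondrial ribosomal protein gene at 2485 bp, rose by 0.90 ± 0.12 (adjusted p = 8.87e-05). The gene before Csf1, Ahcyl1 at 44488 bp, fell by 1.17 ± 0.18 (adjusted p = 0.000252). Before Csf1r, Pdgfrb, a related receptor kinase gene 15537 bp away, had 8, 26 and 36 counts in the libraries labelled knockout and 0, 9 and 0 in control, and did not pass (adjusted p = 0.210). P4ha2, a collagen prolyl hydroxylase gene at 115606 bp from Csf2, had 57, 94 and 86 counts in the libraries labelled knockout, against 5, 7 and 21 in control, and rose by 2.42 ± 0.72 (adjusted p = 0.0170). That call was lost without knockout replicate 2, knockout replicate 3 or control replicate 2, where the adjusted p for P4ha2 ran from 0.0521 to 0.0647. P4ha2 came through the low-count filter by the libraries labelled knockout alone, the group where it was high. Nothing is read from its call.

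Of the 5 family genes with a RefSeq promoter, Csf2rb2 was the 1 with a match to the core of the PU.1 motif, GAGGAAGT. PU.1, encoded by Spi1, is the factor known for driving myeloid receptor genes. The window runs from 250 bases before to 50 after the start, on the minus strand of GRCm38.p6, and capitals mark the match, which is read on the other strand as ACTTCCTC and begins at base 278.
Csf2rb2 promoter, chr15:78305672-78305971: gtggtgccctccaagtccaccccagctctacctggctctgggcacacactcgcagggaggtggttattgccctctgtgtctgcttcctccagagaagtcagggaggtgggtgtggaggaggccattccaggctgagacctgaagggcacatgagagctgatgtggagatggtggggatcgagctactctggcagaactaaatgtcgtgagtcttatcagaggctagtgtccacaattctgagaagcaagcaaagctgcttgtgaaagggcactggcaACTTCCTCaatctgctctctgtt
Of 32851 promoters, 3.2% held this motif on either strand. The C/EBP motif TTGCNNAA occurred in that of Csf2 (10.8% of all promoters), and the AP-1 motif TGANTCA in none of the 5 (7.81% of all). The window of Csf2 is 54249850 to 54250149 on chromosome 11, wholly upstream of the GENCODE gene, which begins at 54249667 on the minus strand. For Csf2 the matches therefore describe a stretch before that start.

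For each list of genes below, the shares to set beside its counts are 21.0% higher and 22.3% lower over all genes tested. The transcription factors known to drive the receptor genes did not pass the test. Of 7 on the list 5 were tested, 0 rose and 0 fell, also at an unadjusted p under 0.05 and in DESeq2 and limma-voom, with a median log2 fold change of 0.29 against -0.03 over all genes. Spi1 averaged 3.54 CPM in the libraries labelled knockout and 3.36 CPM in control (adjusted p = 0.835). Runx1, another factor that acts on the Csf1r gene, averaged 4.49 CPM against 3.68 CPM (adjusted p = 0.387), and passed at 0.84 with the length correction (adjusted p = 0.0257).

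Factors known to switch on the genes for the ligands gave 0 rises and 5 falls among 12 tested, with a median log2 fold change of -0.72. Among the falls, Cebpd passed the low-count filter through control alone. Nfkbiz, a nuclear IkB protein that works with NF-kB on cytokine genes, had 173, 160 and 132 counts in the libraries labelled knockout, against 2721, 1905 and 1929 in control, and fell by 4.16 ± 0.15 on the log2 scale (SE; adjusted p = 2.89e-09). The NF-kB subunit genes Rel and Nfkb1 fell by 2.30 ± 0.18 and 1.85 ± 0.17, while Rela stood at -0.15 (adjusted p = 0.639). Cebpb, for a C/EBP factor of the Csf3 promoter, was too low to test, with 0, 0 and 4 counts in the libraries labelled knockout and 13, 7 and 14 in control.

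Genes for proteins that control the decay or stability of cytokine mRNAs gave 0 rises and 3 falls among 10 tested, with a median log2 fold change of -0.60. Zfp36, tristetraprolin, known to promote the decay of cytokine mRNAs with AU-rich elements, had 306, 205 and 314 counts in the libraries labelled knockout, against 1268, 1270 and 1361 in control. It fell by 2.59 ± 0.23 (SE; adjusted p = 2.61e-06). Rc3h1, roquin, another protein that promotes cytokine mRNA decay, fell by 1.59 ± 0.17 (adjusted p = 1.29e-05). Hnrnpd fell by 0.65 ± 0.20 (adjusted p = 0.0212), a call lost in 6 other settings.

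The cytokines and inflammatory enzymes that activated macrophages make along with G-CSF fell in 7 of 7 tested genes, but 4 of these (Il1a, Il1b, Lif and Nos2) passed the low-count filter through control alone and could only fall. The median log2 fold change of -7.10 is that of Il1b. The 3 that passed the filter by either group were Tnf, Cxcl2 and Ptgs2, with log2 fold changes of -4.32, -6.38 and -9.35. Of these, Ptgs2 was lowly counted in the libraries labelled knockout, at 10, 23 and 53 counts, against 12857, 10558 and 20196 in control. Il1a, for interleukin 1 alpha, had 0 counts in each library labelled knockout, against 762, 508 and 508 in control, which is at least 754-fold lower over the group. Nos2, for inducible nitric oxide synthase, had 0 against 409, 300 and 323 counts, at least 438-fold lower. Tnf, the gene for tumour necrosis factor, stayed well counted, at 7.06 CPM in the libraries labelled knockout and 140.5 CPM in control, with an SE of 0.12 on its fall (adjusted p = 1.28e-09). Il6 was too low to test, with 0 counts in the libraries labelled knockout and 4, 35 and 54 in control. The list was chosen with earlier results of these data known and is no independent evidence of its direction.

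Downstream of the receptors, 15 of 22 signal transducer genes fell, 1 rose and 6 did not pass, with a median log2 fold change of -0.88. Jak2, the kinase bound to the GM-CSF and G-CSF receptors, had 91, 96 and 54 counts in the libraries labelled knockout, against 428, 282 and 363 in control. It fell by 2.51 ± 0.28 (SE; adjusted p = 1.70e-05). Lyn, a Src family kinase used by the same receptors, fell by 1.36 ± 0.11 (adjusted p = 1.94e-06), at 13.1 ± 0.73 CPM in the libraries labelled knockout and 33.6 ± 1.00 CPM in control. Map2k1, the kinase above ERK, fell by 1.86 ± 0.17 (adjusted p = 3.59e-06). Fgr, also of the Src family, was the 1 that rose, by 1.54 ± 0.19 (adjusted p = 4.00e-05), with 1910, 2008 and 1748 counts in the libraries labelled knockout, against 680, 549 and 315 in control.

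Among the inhibitors of these receptors, 4 of 11 tested genes fell and 1 rose, with a median log2 fold change of -0.35. Socs3, which blocks G-CSF receptor signalling and is itself switched on by STAT3, had 7, 35 and 4 counts in the libraries labelled knockout, against 166, 125 and 244 in control, and fell by 3.95 ± 0.65 (SE; adjusted p = 0.000393). Cish, a STAT5 target that restrains cytokine receptors, fell by 3.99 ± 0.86 (adjusted p = 0.00388). Both passed the low-count filter through control alone. Dok2, an adaptor that dampens kinase signalling, rose by 0.47 ± 0.13 (adjusted p = 0.0115), and with the length correction the adjusted p was 0.0808. All 4 genes for the shedding of CSF1R from the cell surface changed. Adam17, the protease that cuts CSF1R, rose by 0.48 ± 0.15 (adjusted p = 0.0230), a call lost in 4 of the 6 fits that left out 1 library, namely knockout replicates 1 and 2 and control replicates 2 and 3. Its carrier proteins Rhbdf2 and Rhbdf1 fell by 1.72 ± 0.19 and 1.97 ± 0.54 (adjusted p = 1.71e-05 and 0.0108, the second being 0.0697 without replicate 3 of both groups), and the protease Adam10 fell as well (adjusted p = 0.0327).

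Genes known as targets of CSF receptor signalling gave 0 rises and 6 falls among 7 tested, with a median log2 fold change of -1.07. Bcl2l1, which encodes the survival protein Bcl-xL, averaged 49.98 CPM in the libraries labelled knockout and 275.6 CPM in control, and fell by 2.46 ± 0.10 (SE; adjusted p = 8.43e-09). Ets2 and the cyclin gene Ccnd1, which M-CSF turns on, fell by 1.07 ± 0.13 and 0.97 ± 0.13 (adjusted p = 2.91e-05 and 0.000104). These falls stand beside the rise of Csf1r itself. Of 12 genes for other blood cell cytokines and receptors, 9 had 0 counts in all libraries, among them Il34, the other ligand of CSF1R, and Il3ra and Il5ra, the alpha chains that share Csf2rb. Flt3l and Kitl, ligands of kinases related to CSF1R, were the 2 tested, and they fell by 1.29 ± 0.32 and 1.14 ± 0.34 (adjusted p = 0.00607 and 0.0176). The call of Kitl was lost in 6 other settings, where its adjusted p ran from 0.0508 to 0.0663.

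Over the 9 lists, 80 of 101 distinct genes were tested, of which 3 rose and 45 fell, with the members of the family not counted. Over all genes tested 21.0% were higher and 22.3% lower, but the lists were chosen with earlier results of these data known. Of the 45, 7 passed the filter through control alone, each named above. Over all genes tested 2713 rose and 2879 fell, so 48.5% of calls were rises, and with library totals as the scaling 59.8% were. That scaling put the median over all genes at 0.15 on the log2 scale, against -0.03 with TMM.

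**Figure D4:**
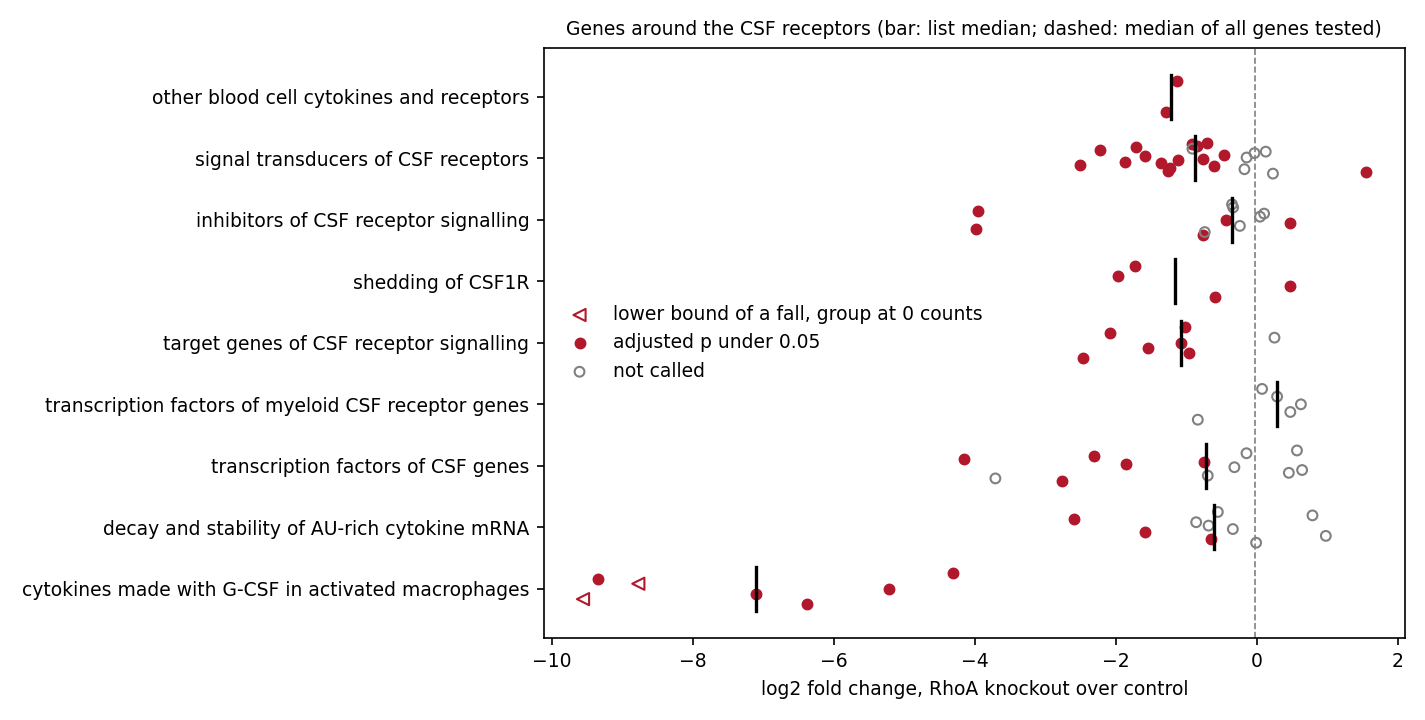
Log2 fold change, libraries labelled RhoA knockout over control, of each tested gene in the 9 pathway lists; filled points have an adjusted p under 0.05, triangles are bounds for genes at 0 counts in the libraries labelled knockout, bars mark the median of each list and the dashed line the median of all genes tested. The cytokines made with G-CSF lie lowest, with Tnf at -4.32 and Ptgs2 at -9.35, and the factors of the myeloid receptor genes lie around 0.29 with 0 called.

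The genes whose level over the 6 libraries was most like each family gene were sought among 3698 well-counted genes, by Pearson r of log2 CPM, as a description. For family genes whose groups do not overlap, these r largely carry the step between the groups. The groups of Csf1 and Csf2ra overlap. For all genes the libraries share their depth and scaling. For Csf3 the closest were Slc7a11 (the cystine transporter), Il1rn (the interleukin 1 receptor antagonist) and Slc15a3 (a lysosomal peptide transporter), all at r = 0.9992, then Hsph1 and Taf8 at 0.9988. Il1rn had 13.5, 18.7 and 14.7 CPM in the libraries labelled knockout, against 1591, 1545 and 2611 CPM in control, so it shared the high control replicate 3. For Csf1r they were Tubb5 (a beta tubulin, 0.9989), Cybb (the catalytic subunit of the phagocyte NADPH oxidase, 0.9985) and Cdca3 (a cell division gene, 0.9984). Cybb stood at 1047, 1002 and 943 CPM in the libraries labelled knockout, against 500, 494 and 448 CPM in control. The closest to Csf2ra was Kif5b, a kinesin heavy chain gene, at 0.973, and both were lowest in replicate 1 labelled knockout. For Csf2rb it was Slc6a13 at 0.9913, for Csf2rb2 Ptpn7 at 0.9864, for Csf3r Dph5 at 0.9852 and for Csf1 Wdr5 at 0.9864.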

How the data were processed

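Total RNA of 6 RAW264.7 samples was taken with Trizol, per the labels' protocols. Per the labels, libraries came from a kit of Illumina. The authors deposited raw counts by gene, not normalized. Their build was GRCm38 per the submitters' processing notes. For the aligner, counter, strand setting and reads with several matches, the method is not given in the sources used here. All value columns were matched to a sample by name, and 0 were left unused. Of 55487 gene IDs 55227 had a symbol in GENCODE M21 and 260 did not, and 20038 had a count. Genes with 4, 8 and further multiples of 4 counts up to 40 outnumbered those 1 count away by 1.32 to 1.45 times, so a read may have been counted more than once and floors and low counts cover counting error at best. No libraries were identical.

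The groups were compared with edgeR 4.0.16 in R 4.3.3: TMM factors, filterByExpr, robust glmQLFit and glmQLFTest. P-values were adjusted by Benjamini-Hochberg over 12930 genes, with a threshold of 0.05. Adjusted p-values are from this test unless another tool is named. Dividing a log2 fold change by the square root of F gave its standard error, and the common biological coefficient of variation was 0.32. CPM are TMM-scaled and were divided by the summed exon length for levels per kilobase. A gene at 0 in a group was given a floor of 3 counts over the group. The procedure was tested on simulated data. Alternatives were other scalings, filters, DESeq2 1.42.0, limma-voom (limma 3.58.1), a length correction, a replicate block and leaving out libraries. Deviations of same-numbered libraries correlated at -0.0059, 0.0277 and 0.0137, so no pairing by replicate number was seen. These values cannot exclude a batch shared by replicate 3 of both groups, which stood apart in each.

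Named were the 8 family genes and Rhoa, up to 3 called genes of each list with the smallest p (where there was none, the 2 most abundant genes), the nearest protein-coding genes, and the 5 genes most like Csf3 and 3 most like each other member. Likeness used a prior count of 2 and an average log2 CPM of at least 3. Fgr, Rela, Cebpb, Cebpd, Cxcl2, Il1b, Il6, Lif, Ptgs2, Adam10, Trub1, the cell type markers and some genes at 0 counts were named after their values were seen. The members and lists were chosen with earlier results of these data known. Promoters came from RefSeq (GRCm38.p6), where 5 of the 8 genes matched (Csf1, Csf2, Csf2ra, Csf2rb2, Csf3r). Other sequences and coordinates came from GENCODE M21 (GRCm38).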

Additional observations from a re-analysis of the deposited data

How the results depend on the processing

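Over 16 other settings, the count of family genes other than Csf3 called higher was 1, as with TMM and edgeR, except for 2 with library totals, 2 with the length correction and 2 with limma-voom. In limma-voom the gene added was Csf2rb2, which passed the filter through the libraries labelled knockout alone. The count called lower was 0, except for 1 without the low-count filter and 1 with DESeq2 (both Csf2), and it ran from 0 to 2 when 1 library was left out, the 2 being Csf1 and Csf2 without knockout replicate 2. In each of these calls the libraries labelled knockout in the fit held 0 counts of the gene, so it could only be called lower. Csf3 ranged from -13.03 to -12.10 on the log2 scale. Csf2ra changed sign, at -0.0598 with the length correction, -0.0128 without replicate 3 of both groups (a setting chosen after seeing the data), and -0.15 to 0.42 when 1 library was left out. Cnot1, which passed at -0.42 (adjusted p = 0.0462), turned to 0.25 with the length correction. Other signs that turned were those of genes that did not pass: Wdr5 at 0.0225 with library totals, Hmgxb3 at 0.21, Nudc at -0.25, Rps19bp1 at -0.16 and Spi1 at -0.14 with the length correction, and Spi1 at -0.14 without replicate 3 of both groups. When 1 library was left out, Nudc ran from -0.0211 to 0.27 and Spi1 from -0.0673 to 0.24. The cause was not tested. The counts over the lists and over all genes stayed within 1.5 times. Of 64 named results, 35 kept direction and side of the threshold in every setting. With the replicate number as a block 5372 genes passed, against 5592 without it, and the block changed no call of a family gene. Low counts limit Csf1, Csf2, Csf2rb2 and Csf3r most.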
